A study of Oryza sativa Japonica Group with 30 samples.

Results

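A set of 8 transporters of sodium and potassium were followed in rice leaves by RNA-Seq, and their transcripts were read in every library of the experiment. They were chosen by name and locus, by a rule that used no measured value. Earlier results of these data were, however, known when the choice was made. All 8 had a row among the 55490 features of the expression table. In the order of the choice they were HKT1;5 (LOC_Os01g20160), HKT1;1 (LOC_Os04g51820), HKT2;1 (LOC_Os06g48810), SOS1 (LOC_Os12g44360), NHX1 (LOC_Os07g47100), AKT1 (LOC_Os01g45990), HAK1 (LOC_Os04g32920) and HAK5 (LOC_Os01g70490). The locus names place them on chromosomes 1, 4, 6, 12, 7, 1, 4 and 1 of the MSU 7.0 rice annotation. The expression table gave locus names only, so the pairing of gene name and locus came with the choice.

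The study compared ZH11, a japonica rice variety, with OE-19, a single transgenic line of ZH11 in which the full-length coding sequence of the NAC transcription factor SNAC1 was driven by a maize ubiquitin promoter. Seedlings of both genotypes shared pots, 10 plants of each, and at the 4-leaf stage they were either watered (ZH11-N and SNAC1-N) or left without water for 10 to 15 days, until the leaves curled and yellowed (ZH11-D and SNAC1-D). Total RNA came from leaves, with 3 libraries in each of the 4 groups and 12 in all. Because OE-19 is 1 line, an effect of SNAC1 and a property of that line cannot be told apart. Values are FPKM, the number of sequenced fragments of a gene scaled by its exon length and by the mapped reads of the library, which can be set side by side between genes.

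Sodium enters plant cells by some of the same routes as potassium and is harmful in the cytosol at high levels, so plants move it out of the cell, into the vacuole or away from the leaf. In rice, class 1 HKT proteins take sodium out of the xylem sap on its way to the leaf blade, SOS1 exchanges sodium for protons at the plasma membrane, and NHX1 does so at the vacuolar membrane. Potassium, which sets turgor, is taken up by the AKT1 channel and by the high-affinity transporters HAK1 and HAK5, proteins best known from roots.

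The summed FPKM of a library was between 728628 and 952207, and the read depth behind these values is unknown. SNAC1 (LOC_Os03g60080) stood at 27.2 to 44.8 FPKM in ZH11-N, 329 to 530 in ZH11-D, 764 to 995 in SNAC1-N and 667 to 981 in SNAC1-D, so that every library labelled SNAC1-OE was above every ZH11 library. All 6 leaf markers were present, with summed levels of 38489 to 74573 FPKM in watered and 12043 to 21159 in drought libraries, while the 4 root markers summed to 8.36 to 16.5, nearly all of it from LOC_Os02g51110. Another root marker, LOC_Os03g01700, was at 0 in every group, and 3 of the 4 were at 0 in both drought groups. Replicate 1 of both watered groups stood apart from the other 4 watered libraries: 12603 of the 19979 features tested (63.1%) lay outside the range of those 4 in both. This touched 4 of the 6 transporters tested, whose values are therefore given with and without these libraries.

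The highest level in all 4 groups belonged to NHX1, at 15.5 to 64.5 FPKM as group means, followed by SOS1 in watered leaves, at 12.6 and 12.7 FPKM. The lowest belonged to HKT1;5 and HAK5, whose means over the 12 libraries were 0.539 and 0.358 FPKM. These were below the minimum of 1 FPKM set for the test, so 6 of the 8 genes were tested. The plot of FPKM by library shows the drought groups apart from the watered ones for NHX1 and LOC_Os04g51820, and the replicate 1 triangles apart from the other watered points for several of the genes.

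**Figure D1:**
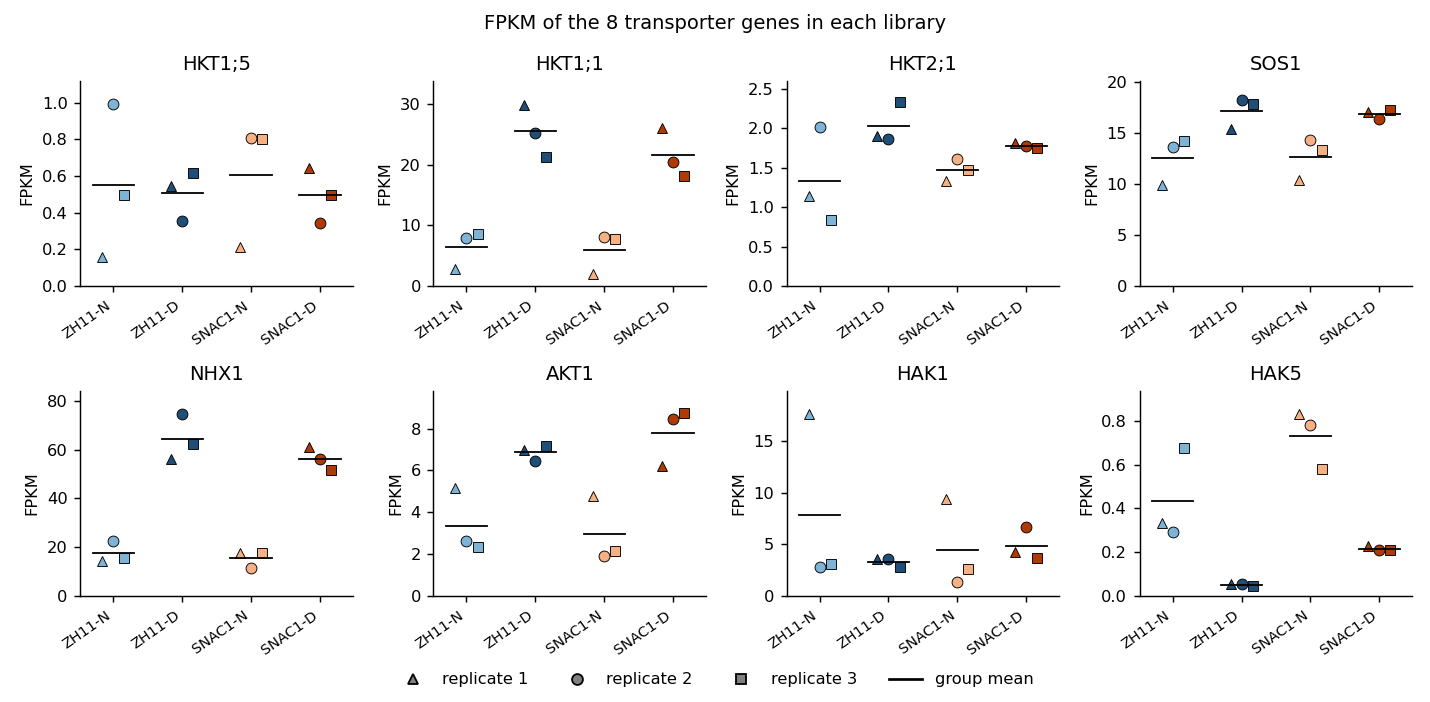
FPKM of each of the 8 genes on a linear axis from 0, with 1 point for each library in the 4 groups, symbols for the replicate number and a bar for the group mean (n = 3). NHX1 had watered points at 11.4 to 22.5 FPKM and drought points at 51.9 to 74.9, whereas HAK5 had watered points at 0.292 to 0.831 and drought points at 0.0450 to 0.227.

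Of the 3 HKT genes chosen, 1 was called in drought, LOC_Os04g51820, which codes for HKT1;1, a sodium transporter of the leaf. Its levels in ZH11-N were 2.84, 7.91 and 8.62 FPKM in replicates 1, 2 and 3, against 30.0, 25.3 and 21.4 in ZH11-D. In SNAC1-N they were 2.03, 8.15 and 7.79 FPKM, against 26.2, 20.4 and 18.1 in SNAC1-D. Every drought library of a genotype was above every watered one, and replicate 1 was the lowest of each watered group. The mean rose from 6.46 ± 3.15 to 25.5 ± 4.30 FPKM in ZH11 (SD, n = 3), or 3.96-fold. In OE-19 it rose from 5.99 ± 3.44 to 21.6 ± 4.14 FPKM, or 3.60-fold.

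Differences were tested with limma on log2(FPKM + 0.5) across all 19979 features, with p-values adjusted by the Benjamini-Hochberg method, and a gene was called at an adjusted p under 0.05 and a log2 fold change (log2FC) of at least 1 in size. For LOC_Os04g51820 the log2FC was 2.02 (SE 0.491, adjusted p = 0.00574) in ZH11 and 1.95 (SE 0.491, adjusted p = 0.00729) in OE-19. Of all features tested, 94.4% had a lower log2FC in ZH11 and 94.5% in OE-19. The watered replicate 1 libraries, with a mean of 2.43 FPKM, were 3.34 times below the other watered libraries. Without both of them the log2FC was 1.56 in ZH11 and 1.37 in OE-19, and the gene was still called in both. In bulk leaf RNA, a change in the share of a cell type and a change in the RNA per cell cannot be told apart. The leaf markers moved in the other direction under drought, with 4 of 6 called lower in ZH11 and 5 of 6 in OE-19 (6 in each without the watered replicate 1 libraries), and their part in the result was not tested.

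HKT1;5, the transporter of the SKC1 salt tolerance locus that unloads sodium from the root xylem, was low in these leaves. It stood at 0.159, 0.994 and 0.496 FPKM in ZH11-N and at 0.545, 0.355 and 0.615 in ZH11-D. In OE-19 it stood at 0.214, 0.805 and 0.805 FPKM when watered and at 0.642, 0.346 and 0.495 in drought. All groups overlapped, and the order of the group means (from 0.495 ± 0.148 to 0.608 ± 0.341 FPKM) had no step beyond the spread. The watered replicate 1 libraries were again low, at a mean of 0.186 against 0.775 FPKM in the other watered libraries. With these set aside, SNAC1-N, at 0.805 and 0.805 FPKM, was above every SNAC1-D library, while the ZH11 groups still overlapped. The drought change of this gene was not tested without them. Tested without the minimum level, it had a drought log2FC of 0.01 in ZH11 and -0.11 in OE-19 (limma, adjusted p = 1 and 0.841).

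HKT2;1, which carries sodium into potassium-starved roots, was low in all groups and was not called. Its levels were 1.14, 2.02 and 0.835 FPKM in ZH11-N and 1.90, 1.86 and 2.33 in ZH11-D, where the groups overlapped only through ZH11-N replicate 2. In SNAC1-N it stood at 1.33, 1.61 and 1.47 FPKM, and all 3 SNAC1-D libraries, at 1.81, 1.77 and 1.74, were above these. The drought log2FC was 0.51 (SE 0.210, adjusted p = 0.0609, limma) in ZH11 and 0.21 (SE 0.210, adjusted p = 0.421) in OE-19. Over all settings it was 0.31 to 0.77 in ZH11 (adjusted p = 0.00329 to 0.222, limma), under the fold threshold throughout. In OE-19 the range was 0.15 to 0.39 (adjusted p = 0.173 to 0.600, limma). Watered replicate 1 lay within the range of the other watered libraries for this gene.

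The 2 sodium-proton exchangers differed in the size of their drought response. NHX1, which loads sodium and potassium into the vacuole, stood at 14.3, 22.5 and 15.5 FPKM in ZH11-N and at 56.4, 74.9 and 62.3 in ZH11-D. In OE-19 it was at 17.5, 11.4 and 17.6 FPKM when watered and at 61.0, 56.1 and 51.9 in drought. Neither genotype had a drought library near its watered ones. The mean rose 3.70-fold in ZH11, from 17.4 ± 4.45 to 64.5 ± 9.48 FPKM, and 3.64-fold in OE-19, from 15.5 ± 3.53 to 56.3 ± 4.54 FPKM.

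The log2FC of NHX1 was 1.88 (SE 0.215, adjusted p = 6.4e-05, limma) in ZH11 and 1.85 (SE 0.215, adjusted p = 7.6e-05) in OE-19. Watered replicate 1 was not outside the other watered libraries, and without both of these libraries the values were 1.75 and 1.95. Of all settings tried, none took the gene below 1.65. A related locus of the same family, LOC_Os05g05590, which the study's annotation gives as OsNHX2 or OsNHX3, was not called, with means of 23.8 ± 1.45 FPKM in ZH11-N and 20.3 ± 1.56 in ZH11-D. Its log2FC was -0.23 in ZH11 (adjusted p = 0.0903) and -0.19 in OE-19 (adjusted p = 0.148). Of the pair, LOC_Os05g05590 had the higher mean level in watered leaves and NHX1 in drought leaves. LOC_Os11g42790 and LOC_Os09g11450, further loci of the family, rose under the fold threshold and were not called. Their log2FC in ZH11 were 0.92 (adjusted p = 0.00841, limma) and 0.91 (adjusted p = 0.00184). In OE-19 they were 0.70 (adjusted p = 0.0314, limma) and 0.96 (adjusted p = 0.00139).

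SOS1, the plasma membrane exchanger that exports sodium, was at 9.92, 13.7 and 14.2 FPKM in ZH11-N and at 15.4, 18.2 and 17.9 in ZH11-D. It was at 10.4, 14.3 and 13.3 FPKM in SNAC1-N and at 17.1, 16.4 and 17.3 in SNAC1-D. The drought libraries were above the watered ones without overlap in both genotypes, by a small margin. The log2FC of 0.45 (SE 0.162, adjusted p = 0.0392, limma) in ZH11 and 0.41 (SE 0.162, adjusted p = 0.0533) in OE-19 were under the fold threshold, so the gene was not called. Without the watered replicate 1 libraries, which were lower than the rest by 0.43 on the log2 scale, the values were 0.29 and 0.28 (adjusted p = 0.0303 and 0.0344).

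AKT1, an inward potassium channel, rose with drought in both genotypes, with the call in ZH11 at the edge of the threshold. Its levels were 5.14, 2.61 and 2.32 FPKM in ZH11-N and 6.98, 6.46 and 7.18 in ZH11-D. In OE-19 they were 4.79, 1.89 and 2.13 FPKM when watered and 6.20, 8.47 and 8.75 in drought. The groups did not overlap, although replicate 1 was the highest of each watered group. The mean rose from 3.36 ± 1.55 to 6.87 ± 0.375 FPKM in ZH11 (2.05-fold) and from 2.94 ± 1.61 to 7.81 ± 1.39 in OE-19 (2.66-fold).

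The log2FC of AKT1 was 1.00 (SE 0.326, adjusted p = 0.0240, limma) in ZH11 and 1.35 (SE 0.326, adjusted p = 0.00566) in OE-19. In ZH11 the call was lost when 1 library was left out in 5 cases, with a log2FC of 0.99, 1.05 (adjusted p = 0.0519) and 0.97 without ZH11-D replicates 1, 2 and 3, and of 0.88 and 0.81 without ZH11-N replicates 2 and 3. Without both watered replicate 1 libraries, whose mean of 4.97 FPKM was 2.22 times that of the other watered libraries, the values were 1.31 in ZH11 and 1.71 in OE-19.

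**Figure D2:**
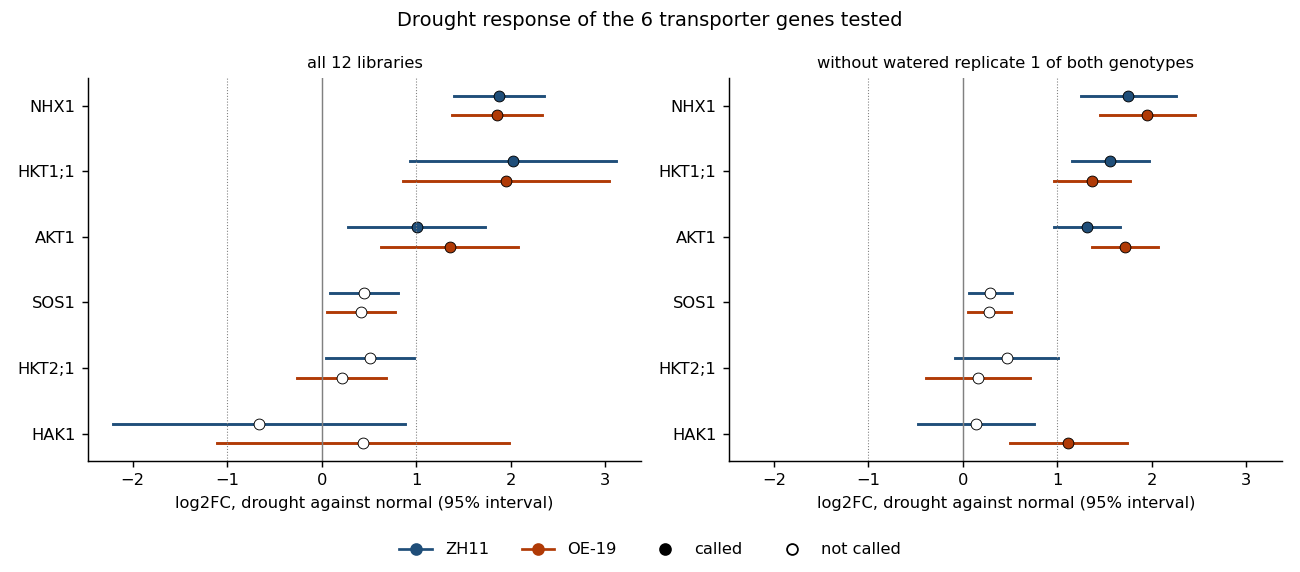
Log2FC of drought against normal for the 6 genes tested, with 95% intervals from limma, in ZH11 and OE-19, for all 12 libraries (left) and without the watered replicate 1 libraries (right), where filled points were called. NHX1 and LOC_Os04g51820 lay between 1.85 and 2.02 with all libraries, and HAK1 in OE-19 went from 0.44 and not called to 1.12 and called.

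HAK1, a high-affinity potassium transporter of roots, had the widest gap between watered replicate 1 and the other watered libraries. It stood at 17.6, 2.78 and 3.10 FPKM in ZH11-N and at 3.56, 3.53 and 2.80 in ZH11-D. In SNAC1-N it stood at 9.41, 1.36 and 2.62 FPKM, and in SNAC1-D at 4.27, 6.63 and 3.70. Replicate 1 was far above the others in both watered groups, with a mean of 13.5 FPKM against 2.47 in the other watered libraries (5.48 times).

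With all libraries HAK1 was not called, at a log2FC of -0.66 (SE 0.695, adjusted p = 0.445, limma) in ZH11 and 0.44 (SE 0.695, adjusted p = 0.620) in OE-19. Without both watered replicate 1 libraries, a setting chosen after the data were seen, it was 0.14 in ZH11 (SE 0.271, adjusted p = 0.670) and rose by 1.12 in OE-19 (SE 0.271, adjusted p = 0.00607). The drought response of HAK1 in OE-19 was thus called only without these libraries, where 36.7% of features were called in ZH11 and 35.6% in OE-19. In that setting 15.1% of features were called higher in OE-19.

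HAK5, a high-affinity potassium transporter induced by potassium shortage in rice roots, had the lowest drought levels of the 8 genes. In ZH11 it went from 0.333, 0.292 and 0.678 FPKM to 0.0541, 0.0515 and 0.0450 in drought. In OE-19 it went from 0.831, 0.781 and 0.580 FPKM to 0.227, 0.211 and 0.208. Every drought library was below every watered library of either genotype, and it was the one gene of the 8 that was lower in drought without overlap. The watered mean was 8.66 times the drought mean in ZH11 (0.435 ± 0.212 against 0.0502 ± 0.00473 FPKM) and 3.39 times in OE-19 (0.730 ± 0.132 against 0.215 ± 0.0104 FPKM).

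At such levels the pseudocount decides the size of the log2FC of HAK5. Tested without the minimum level it was -0.74 in ZH11 and -0.78 in OE-19 (SE 0.137, adjusted p = 0.00224 and 0.00182, limma), under the fold threshold. With a pseudocount of 0.05, a setting added after the data were seen, it was -2.19 in ZH11 (SE 0.298, adjusted p = 0.00036) and -1.54 in OE-19 (SE 0.298, adjusted p = 0.00279), and both were called. In that fit 14.8% of features were called lower in ZH11 and 14.3% in OE-19. The counting error behind values this small is unknown, since no read counts were used.

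Of the 6 genes tested, 3 were called in ZH11, all of them higher in drought (LOC_Os04g51820, NHX1 and AKT1), against 32% of all features tested, 13.8% of them higher. The same 3 genes were called in OE-19, where 31% of all features were called and 13.2% were higher, and 12% of features were called higher in both. The median log2FC of the 6 was 0.76 in ZH11 and 0.90 in OE-19, beside 0.06 and 0.07 over all features. By the weaker criterion of groups that did not overlap, 4 of the 8 genes were higher and 1 was lower in ZH11, where 31.8% and 28.1% of the features tested were. In OE-19, 5 genes were higher and 1 was lower, beside 34.5% and 29.7%. Among the 13909 features under the minimum level that had signal in any library, where HAK5 belongs, 13.4% were lower without overlap in each genotype.

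The comparison of OE-19 with ZH11 asks whether more SNAC1 goes with other transporter levels. None of the 6 genes was called in watered leaves, where 0.265% of features were, or in drought leaves, where 0.305% were, and none had an unadjusted p under 0.05 in the limma test, against 1.57% and 1.48% of features. With the replicate number as a block within each watering condition, under which none was called, an unadjusted p under 0.05 was found for 1 of the 6 in watered leaves (HAK1, against 6.29% of features) and for 2 in drought leaves (HAK1 and LOC_Os04g51820, against 5.22%). The intervals allow differences of some size. For NHX1, OE-19 minus ZH11 was -0.17 (95% interval -0.64 to 0.31) in watered and -0.19 (-0.67 to 0.29) in drought leaves, and for SOS1 it was 0.01 (-0.35 to 0.37) and -0.02 (-0.38 to 0.34). For LOC_Os04g51820 it was -0.17 (-1.26 to 0.93) and -0.24 (-1.33 to 0.85), and with the block the drought value had an interval of -0.47 to -0.01 (SE 0.0969, unadjusted p = 0.0429, adjusted p = 0.928, limma). OE-19 was below ZH11 in 3 of 3 same-numbered drought pairs for LOC_Os04g51820 and LOC_Os06g48810, and in 3 of 3 watered pairs for AKT1. The share of all features with 3 of 3 pairs alike was not counted, so these counts are no evidence of a genotype effect. Whether a shared number marks a true pair is not known from the labels. For AKT1, OE-19 minus ZH11 was -0.19 (-0.92 to 0.53) in watered and 0.16 (-0.57 to 0.88) in drought leaves.

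**Figure D3:**
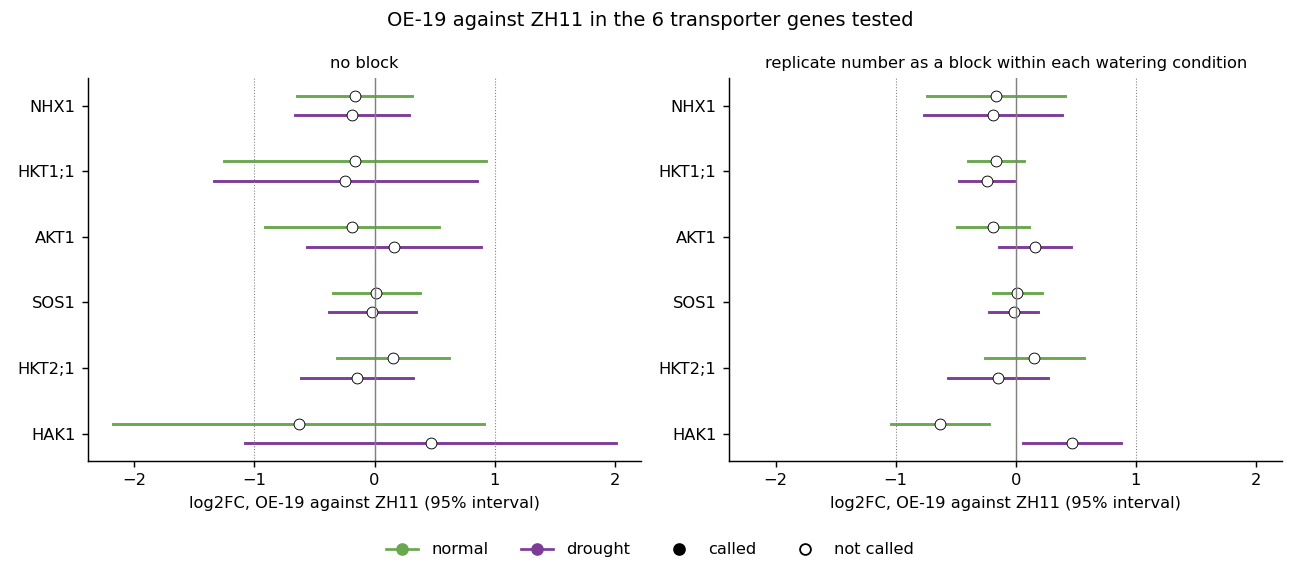
Log2FC of OE-19 against ZH11 for the 6 genes tested, with 95% intervals from limma, in watered and drought leaves, without a block (left) and with the replicate number as a block within each watering condition (right), where open points were not called. All points lay between -0.63 and 0.47 (both HAK1), and with the block the intervals of HAK1 were -1.04 to -0.22 in watered and 0.06 to 0.87 in drought leaves.

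Groups that did not overlap between the genotypes were found for none of the 8 genes in watered leaves, where 3.08% of features tested did not overlap. In drought leaves there were 3, against 6.25% of features tested, with 2 genes higher in OE-19 (3.06% of features) and 1 lower (3.19%). HAK1 was one, with the SNAC1-D libraries at 3.70 to 6.63 FPKM above the ZH11-D libraries at 2.80 to 3.56, and another was HAK5. LOC_Os06g48810 was the third, in the other direction, with SNAC1-D at 1.74 to 1.81 FPKM and ZH11-D at 1.86 to 2.33, a log2FC of -0.15 (adjusted p = 1, limma).

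HAK5 had the largest ratio between the genotypes, with SNAC1-D 4.29 times ZH11-D by the means. In same-numbered drought libraries the OE-19 value was 4.20, 4.09 and 4.63 times that of ZH11. In watered leaves the groups overlapped and the ratio of the means was 1.68. Among features under the minimum level that had signal in any library, 4.41% were higher in OE-19 without overlap in drought. Tested without the minimum level, the drought log2FC between genotypes was 0.38 (SE 0.137, unadjusted p = 0.0209, adjusted p = 1, limma). With the pseudocount of 0.05 it was 1.41 (SE 0.298, unadjusted p = 0.000877, adjusted p = 0.144, limma), so HAK5 did not pass the test over all features. In watered leaves the 2 fits gave 0.41 (SE 0.137, unadjusted p = 0.0136, adjusted p = 0.961, limma) and 0.76 (SE 0.298, unadjusted p = 0.0299). For the difference of the drought responses they gave -0.04 (unadjusted p = 0.858, limma) and 0.65 (unadjusted p = 0.155). A genotype difference particular to drought was thus not shown.

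The same-numbered pairs of HAK1 had opposite signs in the 2 watering conditions, and neither difference passed the adjusted test. In watered leaves it was lower in OE-19 than in the same-numbered ZH11 library in 3 of 3 pairs, and in drought leaves it was higher in 3 of 3 pairs. How many of all features had pairs that turned in this way was not counted. The log2FC of HAK1 between genotypes was -0.63 (SE 0.695) when watered and 0.47 (SE 0.695) in drought. Without ZH11-N replicate 1 alone the watered value was 0.17, with the sign turned, and without both watered replicate 1 libraries it was -0.51. With the replicate number as a block within each watering condition the SE was 0.171, with unadjusted p = 0.00842 and 0.0307 and adjusted p = 0.442 and 0.853 (limma).

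The difference between the 2 drought responses was tested directly in the same limma fit, and it was called for 0 of the 6 genes, against 0.02% of features, with 0 at an unadjusted p under 0.05, against 0.881%. It was 1.10 (SE 0.983) for HAK1, 0.35 (SE 0.461) for AKT1, -0.30 (SE 0.297) for LOC_Os06g48810, -0.08 (SE 0.695) for LOC_Os04g51820, -0.03 (SE 0.230) for SOS1 and -0.02 (SE 0.304) for NHX1, each with an adjusted p of 1.00. For NHX1 the 95% interval was -0.70 to 0.65, and for LOC_Os04g51820 it was -1.62 to 1.47. That of HAK1 with the block had an adjusted p of 0.848 and an unadjusted p of 0.00302, the 1 of 6 under 0.05 against 3.67% of features. It was 0.30 without ZH11-N replicate 1, 0.57 without SNAC1-N replicate 2 and 1.78 without SNAC1-N replicate 1.

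The genes around these 8 in ion transport were read from lists of 45 further loci, drawn up from general knowledge of rice and named by locus only. Of these, 44 were in the table and 35 were tested. Drought called 19 of the 35 in ZH11, with 12 higher and 7 lower, and 16 in OE-19, with 10 higher and 6 lower. Over all features tested 32% were called in ZH11 (13.8% higher and 18.2% lower) and 31% in OE-19 (13.2% and 17.9%). Without the watered replicate 1 libraries 10 were higher and 7 lower in ZH11, and 9 and 6 in OE-19, beside 36.7% and 35.6% of features called. In both genotype comparisons (0.265% and 0.305% of features) and in the difference of the responses (0.02%) 0 were called, with 0 at an unadjusted p under 0.05 (limma).

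**Figure D4:**
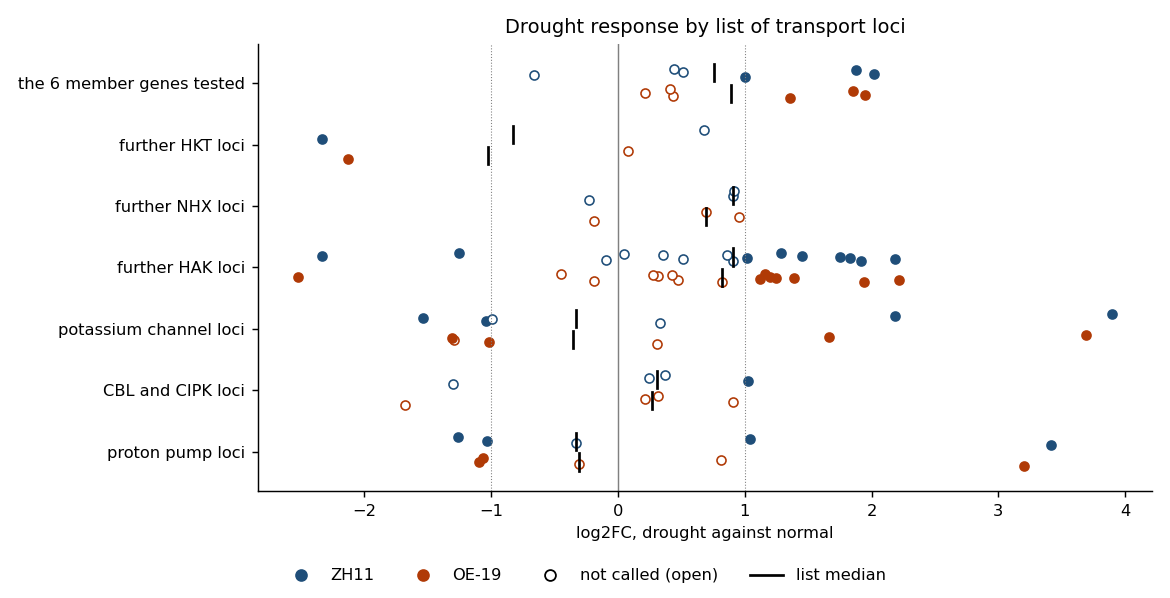
Log2FC of drought against normal for the transport loci tested, 1 point for each locus and genotype, by list, with a bar for the list median and filled points for called loci. The 6 member genes tested had medians of 0.76 in ZH11 and 0.90 in OE-19, and the further HAK loci had 7 called higher in each genotype.

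Within the HKT family, the locus next in number to LOC_Os04g51820 went the other way. LOC_Os04g51830 stood at 1.04, 4.04 and 2.32 FPKM in ZH11-N and at 0.0617, 0.0134 and 0.0357 in ZH11-D, and at 1.43, 3.14 and 2.82 in SNAC1-N and 0.0761, 0.201 and 0.188 in SNAC1-D. It fell by 2.33 on the log2 scale in ZH11 (SE 0.366, adjusted p = 0.000439, limma) and by 2.13 in OE-19 (adjusted p = 0.000808). Its drought values were under the pseudocount of 0.5, which limits the size of these falls. By the means, the watered level was 66.7 times the drought level in ZH11 and 15.9 times in OE-19. The SNAC1-D mean was 4.19 times that of ZH11-D without overlap, where 3.06% of features tested were higher in OE-19 without overlap. Both drought means were very low, at 0.155 FPKM in SNAC1-D and 0.0370 in ZH11-D. That genotype difference was not called (log2FC 0.28, unadjusted p = 0.458, limma). All drought libraries were below all watered ones, whereas those of LOC_Os04g51820 were all above. Whether reads were shared between the pair was not tested.

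Of the 15 further HAK loci tested, which belong to the potassium transporter family of HAK1 and HAK5, 7 rose in both genotypes, beside 12% of all features tested. The largest rises in ZH11 were those of LOC_Os03g37840 (2.19, and 2.21 in OE-19) and LOC_Os02g49760 (1.92 and 1.94), and the others were LOC_Os06g15910 (1.83 and 1.25), LOC_Os06g42030 (1.76 and 1.39), LOC_Os07g47350 (1.45 and 1.20), LOC_Os09g38960 (1.28 and 1.16) and LOC_Os04g52390 (1.02 and 1.12). LOC_Os06g45940 fell by 2.34 in ZH11 and by 2.52 in OE-19, and LOC_Os09g27580 fell by 1.25 in ZH11 and had -0.45 in OE-19, where it was not called. Without the watered replicate 1 libraries 5 were called higher in ZH11 and 6 in OE-19. The calls lost were those of LOC_Os09g38960 in both genotypes (0.99 and 0.84) and of LOC_Os04g52390 (0.94) and LOC_Os09g27580 (-0.997) in ZH11.

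The potassium channel list, to which AKT1 is related, split evenly among its 6 loci tested. LOC_Os07g01810 rose by 3.90 in ZH11 and 3.69 in OE-19, from watered means of 1.33 ± 0.610 and 1.22 ± 0.704 FPKM to 26.0 ± 5.24 and 20.8 ± 5.44, and LOC_Os06g14030 rose by 2.18 and 1.66. LOC_Os05g35410 fell by 1.53 and 1.31, and LOC_Os02g14840 fell by 1.04 and 1.02. LOC_Os03g54100 was called lower only without the watered replicate 1 libraries, at -1.85 and -2.30. Proton pumps build the gradient that SOS1 and NHX1 use. Of the 5 tested, LOC_Os03g48310 rose by 3.41 and 3.20, LOC_Os07g09340 rose by 1.04 in ZH11 and had 0.81 in OE-19, LOC_Os12g44150 fell by 1.26 and 1.07, and LOC_Os06g43660 fell by 1.03 and 1.09. Without the watered replicate 1 libraries LOC_Os06g43660 was at -0.92 in both genotypes and LOC_Os12g44150 at -0.91 in OE-19, under the fold threshold and not called.

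Of the 4 CBL and CIPK loci, which code for calcium sensors and kinases that act on SOS1 and AKT1, LOC_Os06g40370 rose by 1.03 in ZH11 and had 0.91 in OE-19, and without the watered replicate 1 libraries it was at 0.92 in ZH11 and not called. LOC_Os05g45810 was at -1.30 and -1.68 (adjusted p = 0.258 and 0.149), and it was called lower in both only without the watered replicate 1 libraries. None of the 3 further NHX loci tested was called in either genotype with all libraries. Without the watered replicate 1 libraries LOC_Os11g42790 was called higher in ZH11 (1.18).

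Among the 6 genes tested, the pattern over the 12 libraries was most alike for SOS1 and LOC_Os04g51820, with a Pearson r of 0.94 on the log2 scale, then for NHX1 and LOC_Os04g51820 (r = 0.85) and for NHX1 and AKT1 (r = 0.82). HAK1 had r of -0.59 to 0.42 with the other 5. These values describe 12 libraries that share the drought split and, for several genes, the offset of watered replicate 1. Over all features, the pattern of NHX1 was most like those of LOC_Os03g51240 (r = 0.990), LOC_Os01g22352 (r = 0.987) and LOC_Os12g02385 (r = 0.987). LOC_Os04g51820 was closest to LOC_Os05g37700 (r = 0.993), LOC_Os05g04360 (r = 0.991) and LOC_Os04g35100 (r = 0.990).

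For SOS1 the closest were LOC_Os12g16350, LOC_Os04g35190 and LOC_Os06g42164 (each r = 0.991), and for AKT1 they were LOC_Os07g20100 (r = 0.993), LOC_Os03g61560 (r = 0.993) and LOC_Os07g12110 (r = 0.991). HAK1 was closest to LOC_Os05g09600 (r = 0.952), LOC_Os07g07709 (r = 0.950) and LOC_Os08g29570 (r = 0.946). LOC_Os06g48810 had the weakest likenesses of the 6, with LOC_Os06g46030 (r = 0.925), LOC_Os04g44070 (r = 0.917) and LOC_Os06g27800 (r = 0.903).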

How the data were processed

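RNA was extracted from leaves with TRIzol, and the libraries were sequenced on an Illumina instrument by the company Novogene. The authors mapped the reads to rice MSU 7.0 and deposited FPKM values per gene and library. The submitters' processing notes name HISAT2 and StringTie among the tools, with versions not given in the sources used here. FPKM hold no read counts, so no count model was run. Small FPKM did not give whole reads, and the depth is unknown. Every library column was used (0 value columns were left out).

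From the deposited FPKM, log2(FPKM + 0.5) was computed for the 19979 of 55490 features with a mean of at least 1 FPKM and fitted with limma 3.58.1 (R 4.3.3, trend) over the 4 groups without a block. The script was checked on simulated data with 200 changed genes. Those libraries were drawn independently, without the offset of watered replicate 1 or the likeness of same-numbered libraries, so the check cannot show how these affect the tests. All 8 transporters were named, list loci where a drought comparison called them (LOC_Os05g05590, LOC_Os05g45810, LOC_Os03g54100, LOC_Os11g42790 and LOC_Os09g11450 were named after their values were seen), and the 3 features most like each transporter tested. The members and lists were chosen with earlier results of these data known. The libraries were described as independent replicates, but p-values measure only the spread between these libraries.

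Same-numbered libraries of the genotypes deviated together within a watering condition (r = 0.21 to 0.88 in 6 pairs), so the replicate number was also fitted as a block. Some libraries of unlike number did so too, SNAC1-N2 with ZH11-N3 (r = 0.717), SNAC1-N3 with ZH11-N2 (0.600) and SNAC1-D2 with ZH11-D3 (0.276). The other unlike-numbered pairs within a watering condition had negative r. In watered replicates 2 and 3, a shared number (r = 0.486 and 0.507) thus did not go with the higher r. The labels say that the genotypes shared pots, not that a number marks a pot. RefSeq (assembly ASM3414082v1, not the files' build) lists 6 of the 8 gene names, all but SOS1 and NHX1, each on the chromosome in the locus name. One listed HKT locus was not analysed here. The ChIP-Seq tables were not used here, since no MSU 7.0 gene positions were at hand.

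Alternatives were pseudocounts of 0.1 and 1, no minimum level, median ratio scaling, quantile normalization, the replicate block, only the 2 groups compared and each library left out. Added after the data were seen were fits without both watered replicate 1 libraries, without a minimum level at a pseudocount of 0.05, and the latter with the block. Fits without a minimum level took the 33888 features that had signal in any library.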

Additional observations from a re-analysis of the deposited data

Results flagged for a closer look

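HAK1 (LOC_Os04g32920) was set apart because OE-19 was below ZH11 in all 3 same-numbered pairs of watered libraries and above it in all 3 pairs of drought libraries. How many of all features had pairs that turned in this way was not counted. The labels do not say that a shared number marks a pair, and in watered replicates 2 and 3 it did not go with the higher r. The difference of the 2 drought responses was 1.10 on the log2 scale (SE 0.983, unadjusted p = 0.290, limma with adjusted p of 1.00). With the replicate number as a block within each watering condition the unadjusted p was 0.00302 and the adjusted p was 0.848. Without both watered replicate 1 libraries the difference was 0.98 (unadjusted p = 0.0324, adjusted p of 1.00). Without ZH11-N replicate 1 alone the difference was 0.30, and over all alternatives it was 0.30 to 1.78, with an adjusted p of 0.848 to 1.00.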

How the results depend on the processing

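The number of transporters called in drought was 2 to 4 in ZH11 and 3 to 4 in OE-19 over all alternatives, and 0 in each genotype comparison and in the difference of the responses. Leaving out 1 library gave 2 to 3 in ZH11. LOC_Os04g51820 and NHX1 were called in both genotypes under every alternative, with a log2FC of 1.37 to 2.28 and of 1.65 to 2.07. AKT1 lost its call in ZH11 with a pseudocount of 1 (0.91), with median ratio scaling (0.93) and without any of 5 single libraries (0.81 to 1.05), and the cause was not tested. No called value changed sign. A replicate block left the drought counts at 3 and 3 and changed no call, while the adjusted p of SOS1 went to 0.0141 in ZH11 and 0.0199 in OE-19 under the same fold. The block within each watering condition also changed no call. Over all features, the calls between genotypes went from 53 to between 35 and 143 when watered and from 61 to between 49 and 144 in drought, and those of the response difference from 4 to between 0 and 22. What was planned for the ChIP-Seq tables was not run. Depth is unknown, so no floor can be set for HAK5 and LOC_Os01g20160.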
